A study of Homo sapiens with 12 samples.

Results

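The genes followed here were 42 nucleolar ribosome biogenesis genes, taken by name from a table of 35238 genes. All 42 were found under those names, and all 42 passed the filter on low values (a level of at least 1 CPM, the gene's read count scaled to a common library size, in at least 3 libraries) in every comparison. They were measured by bulk RNA sequencing of the human proximal tubule cell line HK-2 in 4 groups of 3 libraries each. All cells had received 10 nM of a short interfering RNA, either scrambled (SCR) or directed against POLR2A (siB). For 24 hours they were kept in the vehicle DMSO alone or with aristolochic acid I (AAI) at 25 µM, a nephrotoxin of Aristolochia plants whose metabolites bind DNA. The groups are called SCR DMSO, SCR AAI, siB DMSO and siB AAI, and were set by the sample titles, since a treatment entry in the labels read DMSO for all 12 samples. The labels did not say whether replicates were separate cultures, so p-values measure only the spread between these samples.

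Ribosomes are assembled in the nucleolus, where RNA polymerase I transcribes the large ribosomal RNA precursor. Small nucleolar ribonucleoproteins (snoRNPs) of the box C/D and box H/ACA kinds modify that precursor, and assembly factors, many of them scaffold proteins, methyltransferases and RNA helicases, fold and cut it into the small and large subunits. The mRNAs of these factors are made by RNA polymerase II, whose largest subunit is encoded by POLR2A, the gene targeted by the knockdown. Nucleolar disruption is a known response to DNA damage and to drugs that block transcription.

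The members fell into 6 roles. RNA polymerase I transcription was covered by 4 genes (UBTF, RRN3, TAF1D, MYBBP1A), abundant nucleolar proteins by 5 (NCL, NPM1, NOLC1, DDX21, GNL3), box C/D snoRNPs by 4 (FBL, NOP56, NOP58, RRP9) and box H/ACA snoRNPs by 4 (DKC1, NOP10, NHP2, GAR1). Small subunit assembly was covered by 14 genes (UTP3, UTP4, UTP15, UTP18, UTP20, WDR43, WDR75, NOL6, NOL11, NOP14, RRP12, BYSL, PNO1, DDX10) and large subunit assembly by 11 (PES1, BOP1, WDR12, NOP2, NOP16, NIP7, RRP1, RRP1B, RRS1, EBNA1BP2, DDX18). Their levels ranged from 5.37 CPM (DDX10, in SCR DMSO replicate 2) to 837 CPM (NCL, in SCR AAI replicate 3). Per kilobase of canonical transcript, the mean level over the 12 libraries was lowest for DDX10 (3.57 CPM per kb) and UTP15 (3.59), and highest for NPM1 (405), followed by NOP56 (152), NCL (150) and FBL (145). The genes lay on 19 chromosomes and were mostly short. Their spans ran from 1.72 kb (RRS1) to 276 kb (DDX10), with a median of 18.1 kb, and 27 were under 30 kb, 11 between 30 and 100 kb and 4 over 100 kb (UTP20, DDX10, WDR12 and EBNA1BP2). There were 8 members (TAF1D, NCL, GNL3, NOP56, NOP58, DKC1, WDR43 and NOL11) that carried snoRNA genes within their span, 32 such genes in all. A total of 21 members overlapped another annotated gene, 20 of them on the opposite strand, and NPM1 had 49 named pseudogenes. Whether counting used strand was not given in the sources used here, so reads of members such as RRN3 (which overlaps PDXDC1 and has 3 named pseudogenes) and NPM1 could be shared with other loci.

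The E-box CACGTG, the letters bound by MYC and other factors of its class, was present in the promoters of part of the members. A window of 250 bases before to 50 bases after the start site was read for 35 members (42 windows, RefSeq, build GRCh38.p14), while NOLC1, NOP58, RRP12, BOP1, RRP1B, RRS1 and DDX18 had no entry. CACGTG, which reads the same on both strands, was present in 19 of the 42 windows (45.2%), belonging to 18 of the 35 genes. It was present in 8.35% of 21613 windows of all protein coding genes and in 9.06% of 16061 windows of protein coding genes expressed here, and the median GC content of the windows was 64.2% in the members, 62.3% in all and 64.3% in the expressed genes. Other motifs, searched on both strands with no overlap with CACGTG in their letters, were closer to the rest. CCGGAAGT (ETS factors) was in 16.7% of member windows and 6.73% of expressed windows, GGGCGG (the GC box) in 71.4% and 64.4%, GCATGCGC (the core of NRF1 sites) in 9.52% and 4.42%, and TATAAA in 2.38% and 6.56%. These matches describe letters in a window and not binding. The 3 windows with the most CACGTG matches, counted per window with ties settled by the gene's mean CPM, are printed here in the sense orientation to place the E-boxes (capitals) relative to the start site, base +1. They are UTP18, a small subunit scaffold protein (chr17:51260296-51260595, plus strand, E-boxes from -89 and +5), NOP10, a box H/ACA core protein (chr15:34343087-34343386, minus strand, from -170 and -11), and DDX21, an RNA helicase (chr10:68956397-68956696, plus strand, from -31).
UTP18: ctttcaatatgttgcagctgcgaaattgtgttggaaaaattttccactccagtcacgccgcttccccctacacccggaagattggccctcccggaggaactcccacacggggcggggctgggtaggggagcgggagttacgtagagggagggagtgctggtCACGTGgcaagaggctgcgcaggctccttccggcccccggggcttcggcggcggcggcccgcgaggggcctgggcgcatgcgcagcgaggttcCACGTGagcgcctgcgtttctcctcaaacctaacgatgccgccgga
NOP10: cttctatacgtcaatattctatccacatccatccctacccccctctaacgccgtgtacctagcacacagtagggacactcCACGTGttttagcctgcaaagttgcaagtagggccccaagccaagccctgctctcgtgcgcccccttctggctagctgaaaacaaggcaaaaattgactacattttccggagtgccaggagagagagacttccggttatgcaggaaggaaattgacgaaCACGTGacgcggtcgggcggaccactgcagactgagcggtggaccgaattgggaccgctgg
DDX21: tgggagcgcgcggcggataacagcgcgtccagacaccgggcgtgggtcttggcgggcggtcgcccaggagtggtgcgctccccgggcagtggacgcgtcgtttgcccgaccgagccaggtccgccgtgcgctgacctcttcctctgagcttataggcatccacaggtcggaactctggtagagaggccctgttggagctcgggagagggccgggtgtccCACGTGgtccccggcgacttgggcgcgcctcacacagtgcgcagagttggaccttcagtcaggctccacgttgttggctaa

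The knockdown target was read first as a check of the labels. POLR2A was at 258, 288 and 306 CPM in SCR DMSO, 673, 719 and 729 in SCR AAI, 138, 143 and 139 in siB DMSO, and 266, 220.4 and 210.3 in siB AAI, in the order of replicates 1, 2 and 3, which is kept for all values below. Each siB library lay under every SCR library of its treatment. The libraries held 15844015 to 42805294 reads, so that 0 reads would have allowed a level of up to 0.0701 to 0.189 CPM, counting error only. Of 17 proximal tubule markers, 7 had a mean of at least 1 CPM (PAX8, GGT1 and MME among them), while defining markers such as LRP2, CUBN, SLC22A6, AQP1 and HNF4A were under 1. Their summed level was 626 to 731 CPM in SCR DMSO, 398 to 657 in SCR AAI, 735 to 756 in siB DMSO and 411 to 556 in siB AAI, and its part in the results was not tested. All 5 epithelial markers (KRT8, KRT18, KRT19, EPCAM, CDH1) were present, while the podocyte gene NPHS1 had a mean under 1 CPM. Of the markers of other cell types, 2 of 5 leukocyte (CD68 at a mean of 75.5 CPM and PTPRC at 1.27), 1 of 4 endothelial (PECAM1 at 2.10) and 3 of 4 fibroblast genes (COL1A1 at 25.9, DCN at 2.63 and PDGFRB at 1.40) had a mean of at least 1 CPM, while CD3E was at 0 in all 12 libraries and LYZ, KDR, CDH5, VWF and COL3A1 had a mean under 1.

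One library stood apart in a way that touched the members. SCR DMSO replicate 2, the deepest library, differed from SCR DMSO replicates 1 and 3 with the base composition of the transcripts. Its level lay outside the range of the other 2 for 40 of the 42 members, 20 being higher and 22 lower than the mean of replicates 1 and 3 on the log2 scale. That count was not made over all genes, so it cannot be read as particular to the members. NOP58 was at 21.6% of the mean of replicates 1 and 3, UTP20 at 26.0%, DDX21 at 28.2% and WDR75 at 30.4%, whereas RRP9 was at 233% and BOP1 at 238%. Across the 42 members this difference rose with the GC content of the canonical transcript (r = 0.86, rho = 0.87, n = 42 members), which ran from 38.6% to 65.6%, and across 13050 expressed genes r was 0.71. These points share 1 library and its preparation, and genes are not independent replicates. What set this library apart was not tested. The members' AAI changes in SCR cells are therefore given with and without it.

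**Figure D1:**
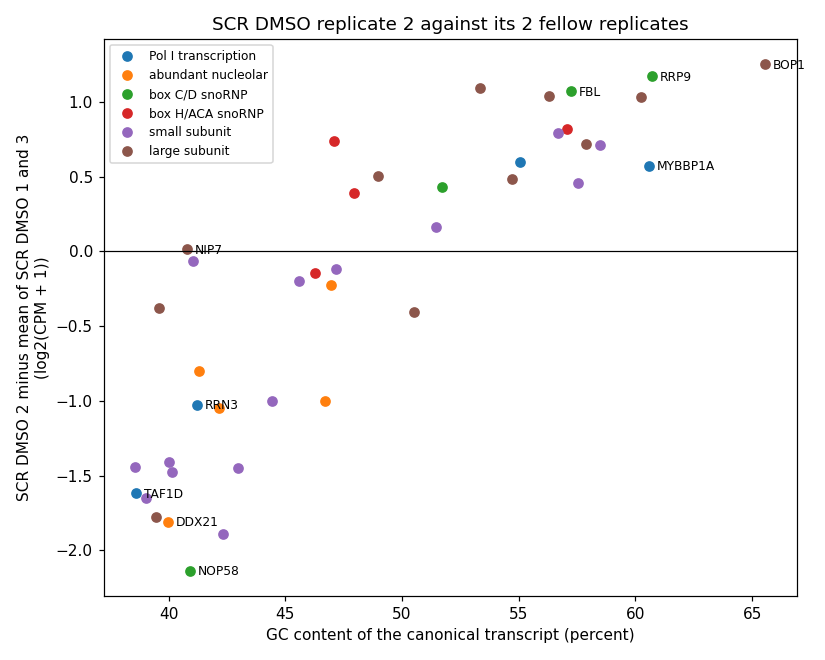
Each point is 1 of the 42 members, coloured by role, with the GC content of its canonical transcript in percent on the horizontal axis and its level in SCR DMSO replicate 2 minus the mean of SCR DMSO replicates 1 and 3, in log2(CPM + 1), on the vertical axis. Members of low GC content, such as NOP58 and DDX21, lie below 0 and members of high GC content, such as RRP9 and BOP1, lie above 0 (r = 0.86).

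AAI was compared with DMSO in SCR cells and in siB cells to see how the injury moved these genes, and siB AAI with SCR AAI to see how the knockdown altered injured cells. Together the members took 0.391% ± 0.0272 of the reads in SCR DMSO, 0.516% ± 0.0781 in SCR AAI, 0.417% ± 0.0339 in siB DMSO and 0.496% ± 0.0394 in siB AAI (SD, n = 3 each). These are shares of bulk RNA, in which fewer cells of a kind and less RNA per cell cannot be told apart. By library the share was 0.396%, 0.361% and 0.415% in SCR DMSO, and 0.515%, 0.439% and 0.595% in SCR AAI. The share in each SCR AAI library was above that in each SCR DMSO library. In siB cells it was 0.456%, 0.394% and 0.401% in DMSO and 0.452%, 0.509% and 0.528% in AAI, where siB AAI replicate 1 lay just under siB DMSO replicate 1. A single other gene entry, AC010970.2, took an uneven part of the reads, which moves the CPM of every other gene. Its part was 0.189% to 5.30% in SCR DMSO, 0.667% to 10.6% in SCR AAI, 1.53% to 3.96% in siB DMSO and 0.826% to 6.41% in siB AAI. The fits were also run without it.

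In SCR cells the members leaned upward under AAI, but a single gene passed the test. Of the 42 members, 39 had a higher mean log2(CPM + 1) in SCR AAI than in SCR DMSO, with a median log2 change of 0.46 against 0.18 over all 14228 genes tested, and 35 lay above that median of all genes. Without SCR DMSO replicate 2, 36 were higher and the median was 0.35 against 0.06 over all genes. NOP2, the methyltransferase of large subunit ribosomal RNA, was raised (adjusted p = 0.0495, limma) and no member was lowered, while 8.98% of all genes were raised and 3.36% lowered, so that the raised share of the members was below the background. No member was raised or lowered by 2-fold or more, against 7.73% and 2.73% of all genes. At an unadjusted p under 0.05 there were 5 members higher and 1 lower, against 17.9% and 9.1% of all genes, and voom on the recovered reads called none, against 8.27% raised and 2.84% lowered. Same-numbered libraries were taken as paired here from their correlations, not from the labels. With a replicate block on that basis, 5 members were raised (RRN3, DDX21, NOP58, NOP14, NOP2) and 1 lowered (MYBBP1A), against 14.7% and 6.4% of all genes. Without SCR DMSO replicate 2, 9 were raised (RRN3, RRP9, NOP14, BYSL, BOP1, NOP2, NOP16, RRP1, RRS1) and 1 lowered (DDX10), against 13.5% and 8.7% of all genes. With the trend on transcript GC content removed from every library, 4 were raised (RRN3, DDX21, NOP14, NOP2) and 2 lowered (MYBBP1A, NHP2), against 11.8% and 13.0%, and with the block as well 8 were raised (those 4 with NOP58, UTP15, WDR75 and NOL11) and the same 2 lowered, against 15.1% and 17.2%. Median-ratio scaling moved the median of all genes from 0.18 to -0.01 and that of the members from 0.46 to 0.26, with no member called while 7.5% of all genes were raised and 5.69% lowered. Over all genes that scaling changed the counts of raised and lowered genes from 1277 and 478 to 1067 and 810.

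In siB cells the members moved both ways and many more passed the test. There were 13 raised members (RRN3, NPM1, NOLC1, DDX21, NOP58, UTP4, UTP15, UTP20, WDR75, NOP14, WDR12, NOP2, EBNA1BP2) and 5 lowered (UBTF, MYBBP1A, NHP2, UTP18, RRP1), while 30.4% of all 14928 genes tested were raised and 21.8% lowered. The raised share of the members was thus close to the background. At 2-fold or more, RRN3 and DDX21 were raised and MYBBP1A lowered, against 13.9% and 5.79% of all genes. The median log2 change of the members was 0.25 against 0.10 over all genes, with 27 members higher and 15 lower in siB AAI. RRN3, MYBBP1A, NOLC1 and NOP2 passed in every one of the 18 alternative analyses run for this comparison. In a fit that shared its estimate of the spread over all 4 groups, those 4 were the members that passed (3 raised, 1 lowered), against 20.7% and 13.7% of all genes. Under median-ratio scaling 8 members were raised and 6 lowered, against 26.7% and 27.2% of all genes, the members' median was 0.14, and over all genes the counts of raised and lowered went from 4535 and 3259 to 3957 and 4031. With the trend on transcript GC content removed, 7 were raised (RRN3, NOLC1, DDX21, UTP20, WDR75, NOP14, NOP2) and 7 lowered (UBTF, TAF1D, MYBBP1A, NHP2, UTP18, RRP1, RRS1), against 24.7% and 33.7% of all genes, with a median of 0.10. Several libraries decided how many members passed. Without siB DMSO replicate 2, 6 were raised and 2 lowered (all genes 24.1% and 17.3%), and without siB DMSO replicate 3, 6 and 1 (23.6% and 16.8%). Without siB AAI replicate 1 the counts were 17 and 3 (28.2% and 22.7%), without siB AAI replicate 2 they were 7 and 2 (27.8% and 18.6%), and without siB AAI replicate 3 they were 6 and 4 (26.0% and 18.3%).

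**Figure D2:**
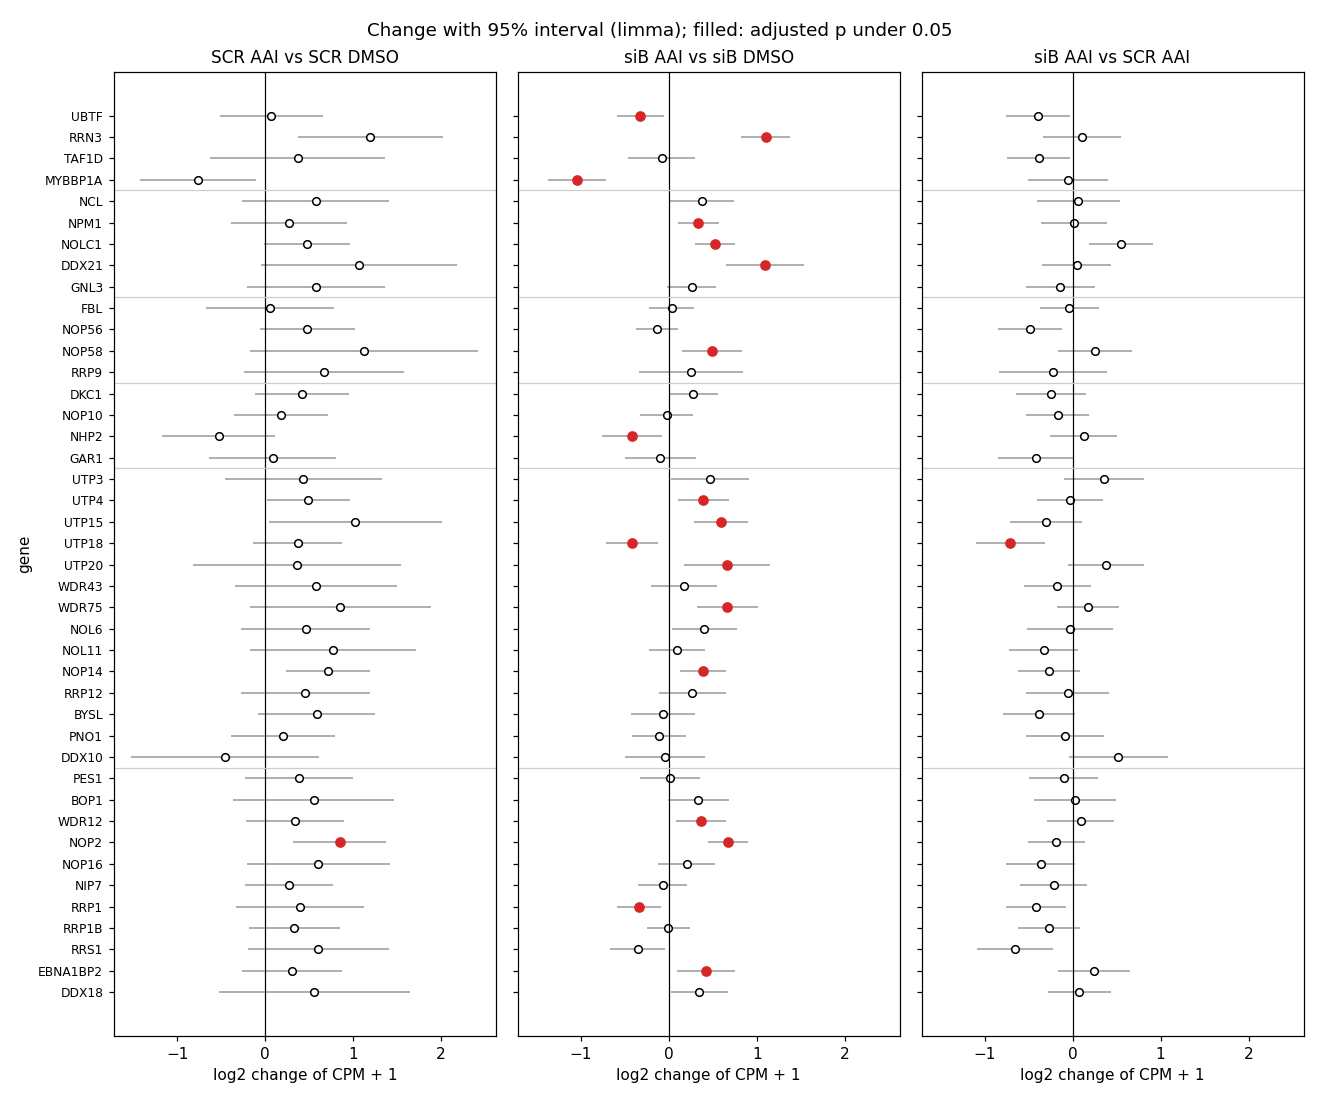
Each row is 1 of the 42 members, grouped by role, and each panel 1 comparison, with the log2 change of CPM + 1 as a point and its 95% interval (limma) as a line on the horizontal axis. Filled points passed an adjusted p under 0.05, which was 1 member in SCR AAI against SCR DMSO (NOP2), 18 members in siB AAI against siB DMSO and 1 member in siB AAI against SCR AAI (UTP18).

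Among the genes of RNA polymerase I transcription, RRN3 was higher and MYBBP1A lower under AAI in both backgrounds. RRN3 encodes the factor that brings RNA polymerase I to the ribosomal DNA promoter. It was at 48.1, 22.3 and 44.8 CPM in SCR DMSO, 99.7, 59.5 and 102 in SCR AAI, 46.9, 38.6 and 40.5 in siB DMSO, and 100.5, 86.8 and 86.0 in siB AAI. AAI and DMSO libraries did not overlap in either background. Its log2 change was 1.20 (SE 0.357, adjusted p = 0.0687) in SCR cells and 1.10 (SE 0.123, adjusted p = 9.01e-05) in siB cells. The first value became 0.85 without SCR DMSO replicate 2 (adjusted p = 0.0369) and 1.39 without SCR DMSO replicate 1 (adjusted p = 0.0477), and it passed with the replicate block (adjusted p = 0.0051). In SCR cells RRN3 passed in only 6 of 18 alternative analyses. Its adjusted p (limma) was 0.054 under median-ratio scaling and reached 0.24 among the alternatives.

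MYBBP1A encodes a nucleolar MYB-binding protein with a part in ribosomal RNA transcription and processing. Its levels were 99.0, 168 and 128 CPM in SCR DMSO, 55.2, 87.2 and 89.3 in SCR AAI, 135, 152 and 165 in siB DMSO, and 59.3, 75.3 and 84.9 in siB AAI. All AAI libraries lay below all DMSO libraries. The gene fell by 1.04 on the log2 scale in siB cells (SE 0.146, adjusted p = 0.000337). In SCR cells the log2 change was -0.76 (SE 0.286, adjusted p = 0.134), or -0.57 without SCR DMSO replicate 2, and with the replicate block the adjusted p was 0.027. UBTF, which binds along active ribosomal DNA, was at 138, 184 and 105 CPM in SCR DMSO, 166, 125 and 149 in SCR AAI, 141, 145 and 131 in siB DMSO, and 123, 95.3 and 115 in siB AAI. The SCR groups overlapped, and the siB AAI libraries lay below every other group except SCR DMSO replicate 3. UBTF fell by 0.32 in siB cells (SE 0.12, adjusted p = 0.0451), a call lost without siB DMSO replicate 1, 2 or 3 or siB AAI replicate 2 or 3 (adjusted p 0.0633, 0.152, 0.0764, 0.144 and 0.0789), and its change in SCR cells was 0.07 (adjusted p = 0.888), or 0.27 without SCR DMSO replicate 2. TAF1D, a subunit of the promoter selectivity factor, had log2 changes of 0.37 in SCR cells (adjusted p = 0.623), turning to -0.17 without SCR DMSO replicate 2, and -0.08 in siB cells (adjusted p = 0.7).

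The abundant nucleolar proteins were higher under AAI in all 5 genes and both backgrounds, with a median log2 change of 0.58 in SCR cells, where none passed, and 0.38 in siB cells, where 3 were raised. Of all genes, 8.98% were raised in SCR cells and 30.4% in siB cells. Without SCR DMSO replicate 2 the median in SCR cells was 0.24, NPM1 being at 0.00, GNL3 at 0.23, NCL at 0.24 and NOLC1 at 0.40. DDX21, an RNA helicase that binds ribosomal RNA and snoRNAs, was at 224, 62.5 and 219 CPM in SCR DMSO, 314, 238 and 382 in SCR AAI, 214, 115 and 132 in siB DMSO, and 316, 333 and 301 in siB AAI. AAI libraries were above DMSO libraries in both backgrounds, with SCR DMSO replicate 2 far below its group and siB DMSO replicate 1 above the other two of its group. The log2 change was 1.07 in SCR cells (SE 0.483, adjusted p = 0.203), falling to 0.47 without SCR DMSO replicate 2, and 1.09 in siB cells (SE 0.198, adjusted p = 0.00151).

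NPM1, nucleophosmin, had 561, 333 and 601 CPM in SCR DMSO, 635, 465 and 663 in SCR AAI, 514, 439 and 445 in siB DMSO, and 542, 600.0 and 619 in siB AAI. The SCR groups overlapped and the siB groups did not. NPM1 rose by 0.33 in siB cells (SE 0.105, adjusted p = 0.0232), a call lost under median-ratio scaling (0.22, adjusted p = 0.138), with the GC trend removed (0.12, adjusted p = 0.359), and without siB DMSO replicate 2 or 3 or siB AAI replicate 2 or 3 (adjusted p 0.111, 0.0984, 0.0575 and 0.0849). NCL, nucleolin, the member with the highest CPM, was at 592, 274 and 509 CPM in SCR DMSO, 748, 439 and 837 in SCR AAI, 697, 452 and 454 in siB DMSO, and 631, 703 and 708 in siB AAI. Its groups overlapped in both backgrounds, and its log2 change was 0.58 in SCR cells (adjusted p = 0.35) and 0.38 in siB cells (adjusted p = 0.0778), where it passed without siB DMSO replicate 1 (0.59, adjusted p = 0.0013). GNL3, the GTP-binding protein nucleostemin, was at 57.2, 29.6 and 68.0 CPM in SCR DMSO, 75.6, 58.5 and 88.6 in SCR AAI, 62.9, 49.9 and 53.9 in siB DMSO, and 60.7, 69.5 and 69.2 in siB AAI. Both pairs of groups overlapped, and neither change passed (0.58, adjusted p = 0.321, and 0.26, adjusted p = 0.111), though that in siB cells did without siB DMSO replicate 1 (0.35, adjusted p = 0.0275). NOLC1, a chaperone of snoRNPs, rose by 0.52 in siB cells (SE 0.102, adjusted p = 0.0023).

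**Figure D3:**
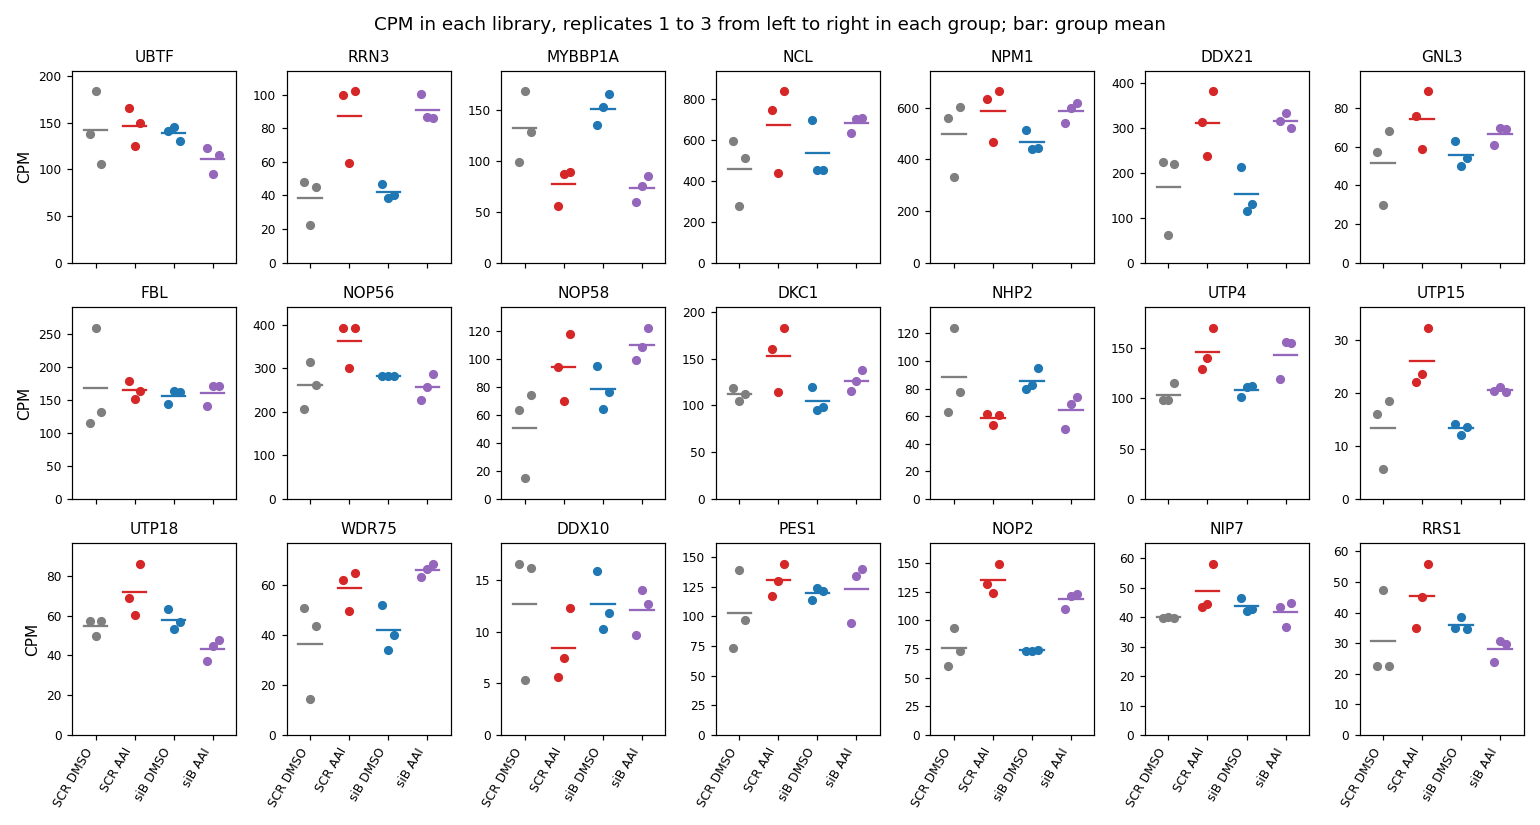
Each panel is 1 of the 21 members whose values are given for every library, with CPM from 0 on the vertical axis and the 4 groups on the horizontal axis, replicates 1 to 3 as points and the group mean as a bar. RRN3, MYBBP1A, DDX21, NHP2, UTP4, UTP15 and NOP2 separate AAI from DMSO libraries in both backgrounds, and UTP18 lies above DMSO in SCR AAI (60.2 to 86.1 CPM) and below it in siB AAI (37.1 to 48.0 CPM).

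The core proteins of box C/D snoRNPs, which guide ribose methylation of ribosomal RNA, did not move together. NOP58 was at 63.4, 14.8 and 74.2 CPM in SCR DMSO, 94.3, 69.9 and 118 in SCR AAI, 94.7, 64.3 and 76.6 in siB DMSO, and 99.2, 108 and 122 in siB AAI. The SCR groups overlapped and the siB groups did not. It rose by 0.49 in siB cells (SE 0.151, adjusted p = 0.0212), a call lost with the GC trend removed (0.27, adjusted p = 0.0824) and without siB DMSO replicate 2 or 3 or siB AAI replicate 2 or 3 (adjusted p 0.0935, 0.0636, 0.0521 and 0.0895). In SCR cells the value was 1.13 (SE 0.562, adjusted p = 0.244), 0.42 without SCR DMSO replicate 2, and passed with the block (adjusted p = 0.0428). Its partner NOP56 was at 207, 314 and 262 CPM in SCR DMSO, 394, 300.4 and 393 in SCR AAI, 281, 282 and 282 in siB DMSO, and 227, 257 and 287 in siB AAI. AAI and DMSO libraries overlapped in both backgrounds, and the log2 changes were 0.48 in SCR cells (adjusted p = 0.233), or 0.63 without SCR DMSO replicate 2, and -0.14 in siB cells (adjusted p = 0.307). FBL, fibrillarin, the methyltransferase of the complex, was at 116, 260.4 and 131 CPM in SCR DMSO, 179.5, 152 and 165 in SCR AAI, 145, 165 and 162 in siB DMSO, and 141, 171 and 172 in siB AAI. The groups overlapped, and the log2 change was 0.06 in SCR cells (95% interval -0.67 to 0.79), or 0.42 without SCR DMSO replicate 2, and 0.03 in siB cells (-0.22 to 0.29). RRP9, a protein of the snoRNP needed for the first cleavages of the precursor, had log2 changes of 0.67 in SCR cells (adjusted p = 0.321), or 1.06 without SCR DMSO replicate 2 (adjusted p = 0.0196), and 0.25 in siB cells (adjusted p = 0.448), or 0.58 without siB AAI replicate 1 (adjusted p = 0.0213).

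Box H/ACA snoRNPs, which guide pseudouridylation, had a median log2 change of 0.13 in SCR cells, which was -0.07 under median-ratio scaling and 0.32 without SCR DMSO replicate 2, and of -0.06 in siB cells. NHP2, a core RNA-binding protein, was lower under AAI. It was at 63.1, 124 and 77.8 CPM in SCR DMSO, 61.2, 53.5 and 61.2 in SCR AAI, 80.0, 82.5 and 94.6 in siB DMSO, and 51.0, 68.7 and 73.9 in siB AAI. Neither pair of groups overlapped. NHP2 fell by 0.42 in siB cells (SE 0.151, adjusted p = 0.0414), a call lost without siB DMSO replicate 2 or 3 or siB AAI replicate 1 or 2 (adjusted p 0.0789, 0.151, 0.0901 and 0.0573), and its log2 change in SCR cells was -0.53 (SE 0.279, adjusted p = 0.27), or -0.26 without SCR DMSO replicate 2. DKC1, the pseudouridine synthase dyskerin, was at 118, 104 and 112 CPM in SCR DMSO, 160.5, 114 and 183 in SCR AAI, 120.1, 94.7 and 98.6 in siB DMSO, and 116, 126 and 137 in siB AAI. Its groups overlapped in both backgrounds, and its log2 change was 0.42 in SCR cells (adjusted p = 0.29), or 0.37 without SCR DMSO replicate 2, and 0.28 in siB cells (adjusted p = 0.0871), where it passed without siB DMSO replicate 1 (0.38, adjusted p = 0.0148). NOP10 (0.18 and -0.03) and GAR1 (0.09 and -0.10), the other core proteins, passed in neither background, and were at 0.31 and 0.33 in SCR cells without that library.

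Of the 14 small subunit factors, 13 were higher in SCR AAI (12 without SCR DMSO replicate 2, UTP20 then being at -0.27), where none passed with all libraries, and in siB cells 5 were raised (UTP4, UTP15, UTP20, WDR75, NOP14) and 1 lowered (UTP18). The shares of all genes in siB cells were 30.4% raised and 21.8% lowered. UTP4, UTP15 and WDR75 belong to the complex that first binds the nascent precursor. UTP15 was at 16.0, 5.70 and 18.4 CPM in SCR DMSO, 21.9, 23.6 and 32.3 in SCR AAI, 14.1, 12.1 and 13.6 in siB DMSO, and 20.4, 21.1 and 20.1 in siB AAI. AAI libraries lay above DMSO libraries in both backgrounds. Its log2 change was 1.03 in SCR cells (SE 0.425, adjusted p = 0.168), or 0.55 without SCR DMSO replicate 2, and it rose by 0.60 in siB cells (SE 0.137, adjusted p = 0.00538). The call for UTP15 in siB cells was lost with the GC trend removed. WDR75 was at 50.7, 14.3 and 43.4 CPM in SCR DMSO, 61.7, 49.4 and 64.9 in SCR AAI, 51.8, 33.9 and 39.9 in siB DMSO, and 62.9, 66.3 and 68.4 in siB AAI. The SCR groups overlapped and the siB groups did not, and the log2 changes were 0.86 in SCR cells (adjusted p = 0.267), or 0.31 without SCR DMSO replicate 2, and 0.66 in siB cells (SE 0.155, adjusted p = 0.00575). UTP4 was at 98.0, 98.0 and 115 CPM in SCR DMSO, 129, 139.9 and 171 in SCR AAI, 101.2, 111 and 113 in siB DMSO, and 119, 156 and 155 in siB AAI. Neither pair of groups overlapped, and the log2 changes were 0.49 in SCR cells (SE 0.205, adjusted p = 0.171), or 0.45 without SCR DMSO replicate 2, and 0.39 in siB cells (SE 0.127, adjusted p = 0.0269). The call for UTP4 in siB cells was lost with the GC trend removed and when any siB library but siB AAI replicate 1 was left out.

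UTP18, another small subunit scaffold protein, was the member whose AAI and DMSO libraries did not overlap in either background and lay in opposite order. It was at 57.1, 49.8 and 57.5 CPM in SCR DMSO, 68.9, 60.2 and 86.1 in SCR AAI, 63.5, 53.5 and 57.0 in siB DMSO, and 37.1, 44.7 and 48.0 in siB AAI. All SCR AAI libraries were above SCR DMSO, and all siB AAI libraries were below every other library. UTP18 fell by 0.42 in siB cells (SE 0.133, adjusted p = 0.0247), a call lost without siB DMSO replicate 3 or siB AAI replicate 1 (adjusted p 0.07 and 0.0548), while its log2 change in SCR cells was 0.37 (SE 0.221, adjusted p = 0.329), or 0.30 without SCR DMSO replicate 2. The interaction, which tests the difference between those changes, was -0.79 (SE 0.238, adjusted p = 0.144), and -0.84 with the GC trend removed (adjusted p = 0.0449).

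The remaining small subunit factors had smaller or less certain changes. DDX10, an RNA helicase with the longest span of the members, was at 16.6, 5.37 and 16.2 CPM in SCR DMSO, 5.63, 7.43 and 12.3 in SCR AAI, 15.9, 10.2 and 11.8 in siB DMSO, and 9.66, 14.03 and 12.7 in siB AAI. SCR DMSO replicate 2 was the lowest of all 12 libraries, and both pairs of groups overlapped. The log2 change was -0.46 in SCR cells (SE 0.461, adjusted p = 0.565), -0.94 without that library (adjusted p = 0.049), and -0.05 in siB cells (adjusted p = 0.849). NOP14, a scaffold protein, had 0.72 in SCR cells (adjusted p = 0.0614), or 0.77 without SCR DMSO replicate 2 (adjusted p = 0.0247), and rose by 0.38 in siB cells (adjusted p = 0.0197), a call lost without siB DMSO replicate 2 or 3 or siB AAI replicate 3 (adjusted p 0.0857, 0.0865 and 0.0815). UTP20, a large late-acting scaffold protein, rose by 0.66 in siB cells (SE 0.219, adjusted p = 0.0295), with overlapping groups and a call lost without siB DMSO replicate 2 or 3 or siB AAI replicate 2 or 3 (adjusted p 0.0963, 0.111, 0.0891 and 0.0872). The other members of this role, UTP3, WDR43, NOL6, NOL11, RRP12, BYSL and PNO1, had log2 changes between 0.20 (PNO1) and 0.77 (NOL11) in SCR cells and between -0.11 (PNO1) and 0.47 (UTP3) in siB cells, and none passed in either. Leaving out SCR DMSO replicate 2, the values in SCR cells ran from 0.10 (UTP3) to 0.85 (BYSL, adjusted p = 0.0212), with WDR43 at 0.11, PNO1 at 0.18, NOL11 at 0.28, NOL6 at 0.61 and RRP12 at 0.69. Leaving out siB DMSO replicate 1 let UTP3 (0.69, adjusted p = 0.0027) and WDR43 (0.35, adjusted p = 0.0342) pass in siB cells, and leaving out siB AAI replicate 1 let NOL6 (0.56, adjusted p = 0.00963) and RRP12 (0.45, adjusted p = 0.0206) pass.

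**Figure D4:**
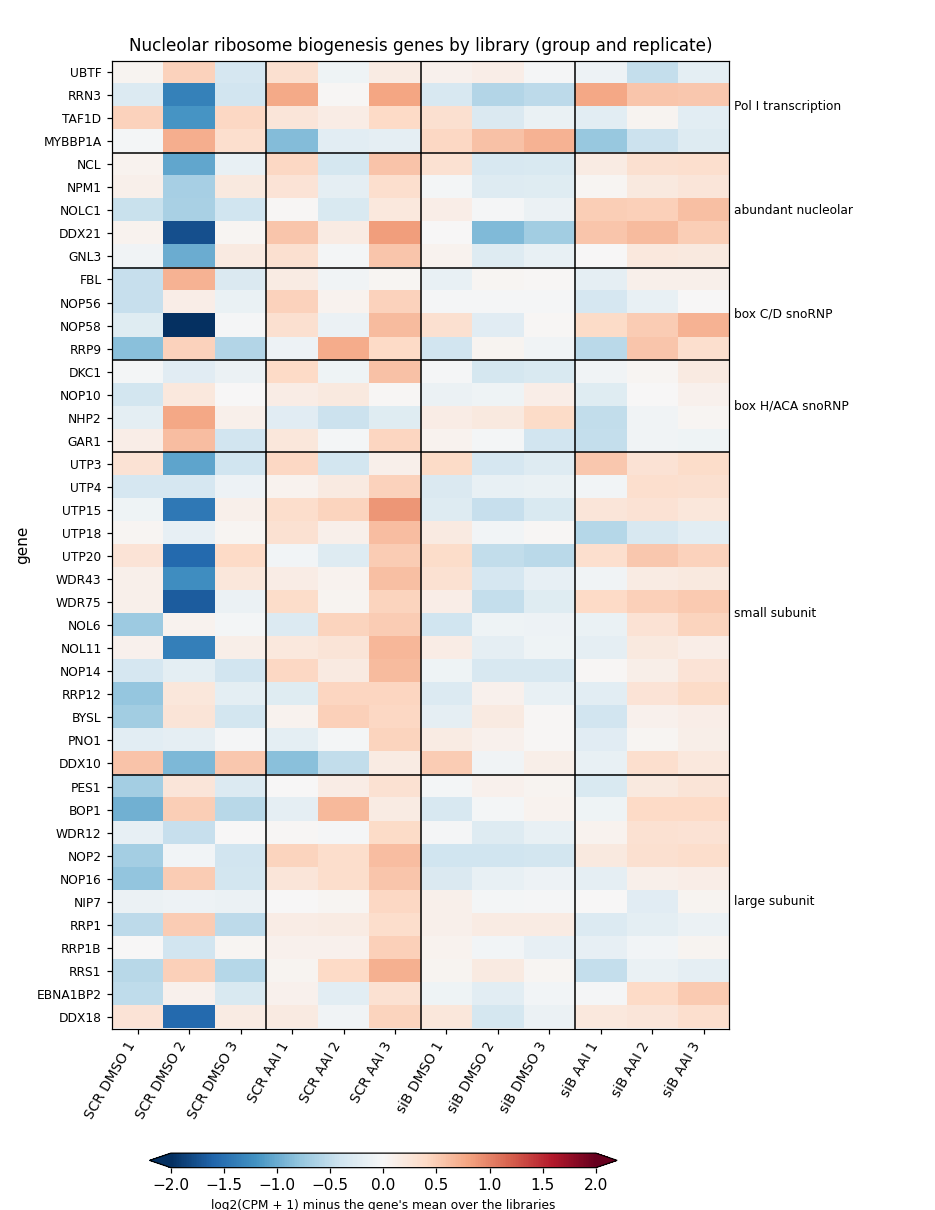
Rows are the 42 members by role and columns the 12 libraries by group, with colour showing log2(CPM + 1) minus the gene's mean over the 12 libraries on a scale that ends at -2 and 2. SCR DMSO replicate 2 is dark blue for members such as NOP58, DDX21 and WDR75 and red for FBL and NHP2, and RRN3 and MYBBP1A separate AAI from DMSO libraries in opposite directions.

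All 11 large subunit factors were higher in SCR AAI than in SCR DMSO, with a median log2 change of 0.40. The median was 0.62 without SCR DMSO replicate 2, and DDX18 was then at -0.04. In siB cells 3 were raised (WDR12, NOP2, EBNA1BP2) and 1 lowered (RRP1), against 30.4% and 21.8% of all genes. NOP2 was at 59.9, 93.1 and 73.5 CPM in SCR DMSO, 132, 124 and 149 in SCR AAI, 73.4, 73.4 and 74.3 in siB DMSO, and 110.3, 121 and 123 in siB AAI. AAI libraries were above DMSO libraries in both backgrounds. NOP2 rose by 0.85 in SCR cells (SE 0.229, adjusted p = 0.0495) and 0.67 in siB cells (SE 0.0997, adjusted p = 0.000475). The call in SCR cells was lost under median-ratio scaling (0.64, adjusted p = 0.214) and when SCR DMSO replicate 1 or 3 or any SCR AAI replicate was left out (adjusted p 0.107 to 0.198), and became 1.01 without SCR DMSO replicate 2 (adjusted p = 0.00595).

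PES1, BOP1 and WDR12 form the complex needed to process large subunit precursors. PES1 was at 72.9, 139 and 96.7 CPM in SCR DMSO, 117, 129.6 and 144 in SCR AAI, 114, 124 and 121 in siB DMSO, and 94.1, 134 and 140.0 in siB AAI. Its groups overlapped, with log2 changes of 0.38 in SCR cells (adjusted p = 0.4), or 0.62 without SCR DMSO replicate 2, and 0.01 in siB cells (95% interval -0.32 to 0.35). WDR12 rose by 0.36 in siB cells (adjusted p = 0.0376), a call lost with the GC trend removed (0.11, adjusted p = 0.485) and without siB DMSO replicate 2 or 3 or siB AAI replicate 2 or 3 (adjusted p 0.154, 0.107, 0.109 and 0.119), and BOP1 had 0.34 (adjusted p = 0.0972), passing without siB AAI replicate 1 (0.49, adjusted p = 0.0144). RRS1, which helps load the small ribosomal RNA of the large subunit, was at 22.7, 47.4 and 22.4 CPM in SCR DMSO, 35.1, 45.0 and 55.9 in SCR AAI, 35.1, 38.6 and 34.5 in siB DMSO, and 23.9, 30.6 and 29.6 in siB AAI. The SCR groups overlapped through SCR DMSO replicate 2, and the siB AAI libraries lay below siB DMSO. Its log2 change was 0.61 in SCR cells (adjusted p = 0.308), or 0.95 without that library (adjusted p = 0.0189), and -0.36 in siB cells (SE 0.138, adjusted p = 0.0527).

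NIP7, a factor of late large subunit processing, was at 39.8, 40.2 and 39.6 CPM in SCR DMSO, 43.5, 44.5 and 58.1 in SCR AAI, 46.3, 42.02 and 42.7 in siB DMSO, and 43.2, 36.6 and 44.9 in siB AAI. SCR AAI lay above SCR DMSO while the siB groups overlapped, and neither change passed (0.27 with and without SCR DMSO replicate 2, adjusted p = 0.468 with it, and -0.07, adjusted p = 0.643). RRP1 fell by 0.34 in siB cells (SE 0.11, adjusted p = 0.0258), a call lost without siB DMSO replicate 2 or 3 or siB AAI replicate 2 (adjusted p 0.0993, 0.102 and 0.0589), and its paralog RRP1B had -0.01 (adjusted p = 0.97). EBNA1BP2 rose by 0.42 (SE 0.147, adjusted p = 0.0366), a call lost under median-ratio scaling (0.31, adjusted p = 0.134) and without siB DMSO replicate 2 or 3 or siB AAI replicate 2 or 3 (adjusted p 0.116, 0.0717, 0.111 and 0.144). Removing the GC trend also lost the call for EBNA1BP2. The helicase DDX18 (0.35, adjusted p = 0.0713) passed without siB DMSO replicate 1 (0.50, adjusted p = 0.00405), and NOP16 (0.20) did not pass.

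Between the injured groups, 1 member passed the test with all libraries and no replicate block. In siB AAI against SCR AAI, UTP18 was lowered (log2 change -0.71, SE 0.181, adjusted p = 0.0303) and no member was raised, while 5.49% of 14946 genes were raised and 3.79% lowered. The call for UTP18 was lost without SCR AAI replicate 3 or siB AAI replicate 1, 2 or 3 (adjusted p 0.129, 0.105, 0.082 and 0.0624). At an unadjusted p under 0.05, 1 member was higher and 6 lower, against 13.3% and 12.2% of all genes, and voom called 0 members raised and 1 lowered, against 5.17% and 3.49%. The median log2 change was -0.10 against 0.00 over all genes, with 27 members lower, and it turned to 0.04 without siB AAI replicate 1. Here too same-numbered libraries were taken as paired from their correlations, not from the labels. With the block 3 were raised (NOLC1, UTP20, DDX10) and 8 lowered (UBTF, TAF1D, NOP56, GAR1, UTP18, BYSL, RRP1, RRS1), against 15.2% and 13.8% of all genes.

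Several of these were close to the threshold without the block. The lowest adjusted p over all genes (limma) was 2.09e-40 with the block and 0.000582 without it. Block p-values of this comparison thus rested largely on a spread pooled over genes, not on that of each gene. RRS1 had a log2 change of -0.66 (SE 0.199, adjusted p = 0.0579, and 0.000274 with the block), and all its siB AAI libraries lay below SCR AAI. It passed without SCR AAI replicate 1 (-0.82, adjusted p = 0.00864). NOP56 had -0.49 (SE 0.167, adjusted p = 0.088, and 0.00411 with the block), again with no overlap, and passed without SCR AAI replicate 2 (-0.62, adjusted p = 0.0423). NOLC1 had 0.55 (SE 0.166, adjusted p = 0.0568, and 0.00103 with the block), and passed without SCR AAI replicate 1 (0.57, adjusted p = 0.0386). In contrast, RRN3 (0.10, 95% interval -0.34 to 0.55), MYBBP1A (-0.06, -0.51 to 0.40) and DDX21 (0.05, -0.34 to 0.44), the members with the largest responses to AAI in siB cells, had intervals that spanned 0 on both sides.

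Without injury no member passed the test. In siB DMSO against SCR DMSO limma raised 0 and lowered 0 of the 42, and 0.0% of all 13606 genes were raised or lowered. The lowest adjusted p over all genes was 0.257 (limma), so POLR2A itself did not pass. Its libraries were at 138 to 143 CPM in siB DMSO and 258 to 306 in SCR DMSO. The test thus could not show that the members were unchanged. At an unadjusted p under 0.05, 1 member was higher (NOLC1, log2 change 0.50, SE 0.144, with no overlap) and 0 lower, against 3.52% and 1.21% of all genes, and voom called none of the members and none of all genes. The median log2 change of the members was 0.13 against 0.06 over all genes, with 36 higher, and without SCR DMSO replicate 2 it was again 0.13 with 25 higher and 17 lower. NOP58 had the largest value, 0.89 (SE 0.582), which became 0.18 without SCR DMSO replicate 2.

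The interaction over the 4 groups asked whether the AAI response differed between siB and SCR cells. No member passed, while 1.46% of 15325 genes had a higher response in siB cells and 0.157% a lower one. At an unadjusted p under 0.05, 0 members were higher and 4 lower, against 6.75% and 6.51% of all genes, and voom called none of the members and none of all genes. The median over the members was -0.21 against -0.06 over all genes, with 33 of the 42 below 0 (26 without SCR DMSO replicate 2), and became -0.02 under upper-quartile scaling. RRS1 had the lowest value (-0.96, SE 0.382, adjusted p = 0.29), followed by UTP18 and RRP1 (-0.74, SE 0.335, adjusted p = 0.366). Without SCR DMSO replicate 2, RRS1 (-1.31, adjusted p = 0.0174) and RRP1 (-1.08, adjusted p = 0.00947) passed, against 3.34% of all genes.

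Features the rule had not used were set beside the responses as descriptions. Members with an E-box had a median log2 change of 0.42 in SCR cells and 0.21 in siB cells (18 genes), and members whose window lacked it had 0.42 and 0.20 (17 genes). These medians in SCR cells were 0.43 and 0.27 without SCR DMSO replicate 2. By span, the median in siB AAI against SCR AAI was -0.19 for members under 30 kb (27 genes), -0.06 from 30 to 100 kb (11 genes) and 0.31 over 100 kb (4 genes), and the correlation with log10 span was r = 0.36 and rho = 0.34 over the 42 members, which share the same 6 libraries. For AAI in SCR cells the correlation with log10 span was r = 0.01, and -0.33 without SCR DMSO replicate 2. In the same comparison the correlation of the changes with transcript GC content was r = -0.30 with all libraries and 0.42 without that library, so its sign rested on 1 library.

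Related genes gave the setting. Another 83 ribosome biogenesis factors of the small subunit, large subunit and exosome, of which 81 were tested, had a median log2 change of 0.54 in SCR cells, with 0 raised and 0 lowered by limma or voom and 21 higher and 0 lower at an unadjusted p under 0.05. In siB cells 37 were raised and 11 lowered, with a median of 0.25, and in siB AAI against SCR AAI 0 were raised and 5 lowered. Of all genes tested in SCR cells, limma raised 8.98% and lowered 3.36%, and voom 8.27% and 2.84%. At an unadjusted p under 0.05, 17.9% were higher and 9.1% lower. The shares of all genes raised and lowered were 30.4% and 21.8% in siB cells, and 5.49% and 3.79% in siB AAI against SCR AAI. The 12 genes of the RNA polymerase I machinery had medians of 0.47 in SCR cells (0 raised, 0 lowered by limma or voom, 1 higher and 0 lower at an unadjusted p under 0.05) and 0.25 in siB cells (3 raised, 1 lowered). The 83 cytosolic ribosomal protein genes, which encode the ribosome itself, had medians of -0.10 in SCR cells (0 raised, 0 lowered by limma or voom, 1 higher and 3 lower at an unadjusted p under 0.05) and 0.14 in siB cells (14 raised, 3 lowered), or -0.30 and 0.03 under median-ratio scaling. Without SCR DMSO replicate 2 the medians in SCR cells were 0.38 for the other biogenesis factors (11 raised, 0 lowered), 0.40 for the RNA polymerase I machinery (1 raised, 0 lowered) and 0.09 for the ribosomal proteins (0 raised, 0 lowered by limma, 4 higher and 3 lower at an unadjusted p under 0.05). Of all genes in that fit, 13.5% were raised and 8.7% lowered. At an unadjusted p under 0.05, 5054 of 14228 genes passed, 2934 of them higher.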

How the data were processed

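The authors deposited 1 table of log10(CPM + 1) for the 12 libraries, made from polyA RNA sequencing reads on build hg38 with BioJupies. The aligner and the use of strand were not given in the sources used here. CPM was recovered from the deposited log10 values, and the steps of the CPM gave whole reads for 100% of values (tolerance 0.1 read).

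Samples were grouped by title. log2(CPM + 1) was fitted pairwise with limma 3.58.1 (lmFit, eBayes with trend) in R 4.3.3, for genes of at least 1 CPM in at least 3 libraries of the fit, and p-values were adjusted by Benjamini-Hochberg over all genes tested. Raised and lowered mean an adjusted p under 0.05 at any fold. All fold changes are on the log2(CPM + 1) scale, which understates low genes. The siB AAI group takes part in several comparisons, as does each control group, so these share libraries. Only the main fit of SCR AAI against SCR DMSO was tested on simulated data, which held no outlier library, GC trend or pairing.

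Same-numbered libraries deviated together in SCR AAI and SCR DMSO (r = 0.42, 0.47 and 0.34 over 15325 genes) and in siB AAI and SCR AAI (0.61, 0.32 and 0.29), which were taken as paired from these correlations, not from the labels. Correlations between libraries of different numbers were not computed.

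Alternatives were the pseudocount, filter, scaling, library set, trend, replicate block, voom and, added after seeing the data, removal of the transcript GC trend. All 42 members could be named, and values for every library were given, in each role, for the member of highest CPM, the extremes of both AAI comparisons and any called at 2-fold. Members and lists were chosen with earlier results of these data known.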

Additional observations from a re-analysis of the deposited data

How the results depend on the processing

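The limits of these counts were the 3 libraries a group, SCR DMSO replicate 2 and the scaling. No called member changed sign under any alternative. For AAI in SCR cells, the 1 raised member became 0 under median-ratio or upper-quartile scaling, with voom, without the trend, with a pseudocount of 0.1, without the filter or with a filter at a mean of 5 CPM, 2 without AC010970.2, 6 with all 4 groups, 5 with the replicate block, 4 with the transcript GC trend removed and 8 with both, and 0 to 9 when a library was left out. The 0 lowered members became 1 with all 4 groups, 1 with the replicate block, 2 with the GC trend removed and 2 with both, and 0 to 1 when a library was left out. Over all genes, 2776 of 15325 were raised and 1318 lowered with all 4 groups, and 1420 of 14308 were raised without AC010970.2. Upper-quartile scaling raised 1063 of 14206 genes, the pseudocount of 0.1 raised 1223 of 14228, and the fit without the trend 1276 of 14228. Without the filter 1588 of 25641 genes were raised, and with the filter at a mean of 5 CPM 501 of 11526. When a library was left out, 769 to 1918 of 14228 genes were raised and 118 to 1238 lowered. The median of 0.46 became 0.26 with median-ratio and 0.25 with upper-quartile scaling, 0.29 with the GC trend removed with or without the block, and 0.35 to 0.50 when a library was left out.

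For AAI in siB cells, the 13 raised members became 8 with median-ratio scaling, 3 with all 4 groups, 7 with the GC trend removed and 6 to 18 when a library was left out. The 5 lowered became 3 with no filter, 1 with all 4 groups, 3 with no trend, 10 with the replicate block and the GC trend removed, and 1 to 4 when a library was left out, and the median of 0.25 became 0.14 with median-ratio scaling, 0.098 with the GC trend removed with or without the block, and 0.14 to 0.33 when a library was left out. Over all genes, 4775 of 13379 were lowered with the block and the GC trend removed. The lowered genes were 3049 of 25864 with no filter and 3127 of 14928 with no trend. Without siB DMSO replicate 1, which gave the 18 raised members, 5193 of 14928 genes were raised and 3184 lowered. These libraries were not taken as paired by number (r = 0.21, 0.026 and 0.19), nor were siB DMSO and SCR DMSO (0.73, 0.59 and -0.19). The replicate block gave 17 raised and 6 lowered in the first comparison and 0 and 0 in the second. Over all genes the block gave 5072 raised and 3528 lowered of 14928 in the first, and 0 and 0 of 13606 in the second.

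For siB AAI against SCR AAI, the 0 raised became 1 with median-ratio scaling, upper-quartile scaling, without AC010970.2, with all 4 groups or with the GC trend removed, 3 with the replicate block and 4 with the block and the GC trend removed, and 0 to 1 when a library was left out. The 1 lowered became 0 with no filter, 8 with the replicate block, 3 with the GC trend removed and 15 with both, and 0 to 2 when a library was left out, where the median of -0.10, which was -0.012 with upper-quartile scaling, ran from -0.20 to 0.04. Over all genes, 906 of 13350 were raised and 1117 lowered with the GC trend removed, and 2444 and 3199 with both. Median-ratio scaling raised 939 of 14828 genes, upper-quartile scaling 1223 of 14886, and the fit without AC010970.2 860 of 15033. With no filter, 344 of 25906 genes were lowered. With all 4 groups, 744 of 15325 genes were raised and 377 lowered. When a library was left out, 151 to 1306 of 14946 genes were raised and 62 to 798 lowered. For siB DMSO against SCR DMSO the counts were 0 throughout and the median of 0.13 became 0.046 with median-ratio and 0.023 with upper-quartile scaling and 0.065 with the GC trend removed, and ran from 0.090 to 0.19 when a library was left out. For the interaction, 1 member was lowered with the GC trend removed with or without the block (UTP18) and 0 to 2 when a library was left out, 2 being without SCR DMSO replicate 2, and the median of -0.21 became -0.022 with upper-quartile scaling and ran from -0.34 to -0.14. Over all genes, 125 of 13622 were lowered with the GC trend removed and 343 with the block as well. Without SCR DMSO replicate 2, 512 of 15325 genes were lowered. The causes of these shifts were not tested.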
